A study of Mus musculus and Homo sapiens with 12 samples.

Results

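The BCL2 family decides whether a cell under stress opens the outer membrane of its mitochondria, the step that releases cytochrome c and starts the caspases. The 10 members examined were the guardians BCL2, BCL2L1 (BCL-XL) and MCL1, the BH3-only proteins BCL2L11 (BIM), BBC3 (PUMA), PMAIP1 (NOXA), BID and BAD, and the effectors BAX and BAK1. They were taken by gene symbol from a human and a mouse table of FPKM, fragments scaled to gene length and library depth. All 10 were among the 11513 human genes and 9 were among the 10430 mouse genes. Mouse Bax carries no symbol in its table. Its row was found by its Ensembl identifier, and its values are given beside the 9 and are not counted with them.

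The guardians hold BAX and BAK1 in check, and the BH3-only proteins bind the guardians or the effectors and so tip cells towards death. Developing T cells depend on this balance: MCL1 and BCL2 keep thymocytes alive, and BIM removes those that fail selection. T-cell acute lymphoblastic leukaemias (T-ALL) differ in which guardian they lean on. PUMA and NOXA are textbook targets of p53, and BIM and PUMA can be switched on by FOXO factors when growth signals are withdrawn.

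The series holds 12 RNA-seq libraries, 2 in each of 6 groups. KOPTK1 is an established human T-ALL line. It received either DMSO, the solvent, or Compound E, a gamma-secretase inhibitor (gSI), over 72 h. The inhibitor blocks the cleavage that frees active NOTCH1. The mouse leukaemias carried NOTCH-delta E, an activated form of the receptor, and had been passed by secondary transplantation into C57BL/6 mice. After 3 weeks the leukaemic cells, marked by GFP, were isolated from spleens of mice on a diet of 8 g/kg valine (the control), 0.8 g/kg, 0.4 g/kg or 0 g/kg. Every diet is represented by a TALL2 and a TALL3 library, names that the labels leave unexplained. The protocol describes the intermediate levels as valine in the drinking water beside a valine-free diet, so the diets are used as labelled steps. Nothing in the labels says that the 2 libraries of a group came from separate cultures or mice, so the p-values reflect library-to-library spread, which may be technical.

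Depth, estimated as reads recovered from the FPKM, was 22939478 to 42245079 reads in the KOPTK1 libraries and 14222895 to 37687253 in the mouse ones. Members had 346 to 17306 reads per library in KOPTK1 and 151 to 4251 in mouse. The T-cell markers CD3E and LCK were present in all 12 libraries. Summed FPKM of 19 listed T-lineage markers was 442 to 458 with DMSO and 262 to 277 with gSI. In limma 15 of 17 tested ones fell at an adjusted p of 0.05, as did 30.3% of all tested genes. The list includes NOTCH1 (log2 fold change -0.36) and DTX1 (-2.52), and its median was -0.47 (all genes -0.03). In mouse the summed FPKM of 21 T-lineage markers stayed between 4318 and 5355, but single markers varied more. TALL3 minus TALL2 within diets was 2.19 on the log2 scale for Ptcra, 2.18 for Cd4, 1.89 for Rag1 and -1.06 for Cd8a. Of the 21, 13 were higher in TALL3 and 8 lower. In limma 8 of the 21 had an unadjusted p under 0.05, against 14.7% of all tested genes, and none passed an adjusted p of 0.05. Summed neutrophil markers (15 of 17 listed) were 345 to 572 FPKM at 0 g/kg against 1.37 to 78.4 in the other 6 libraries. Erythroid markers (12 of 19 listed) summed to 67.2 to 74.0 at 0 g/kg against 87.8 to 349 elsewhere, and Hbb-bs, a globin, was at 0 in TALL2 at 0 g/kg. B-cell markers (3 of 13 listed) summed to 41.8 and 113 FPKM at 0 g/kg and to 11.2 to 20.3 elsewhere. Macrophage and dendritic markers (7 of 14 listed) summed to 42.4 and 43.5 FPKM at 0 g/kg and to 10.4 to 24.8 elsewhere. Among the 6 tested, Lyz2 had 29.6-fold its control mean at 0 g/kg, with Csf1r at 1.70 and Cd68 at 1.28. Hmox1 (1.03), C1qc (0.9996) and Vcam1 (0.938) stayed near their control means. The part of these cell types in the values at 0 g/kg below was not tested.

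Promoter sequences are shown for Bcl2 and Bbc3, the members with the highest ratios of 0 g/kg to control FPKM that also had both libraries above both controls. They were chosen after these values were seen. Each runs from 250 bases before to 50 after a start site in RefSeq (GRCm38.p6), 5′ to 3′ on the gene's strand, with every match to a searched motif in capitals.
Bcl2, chr1:106714241-106714540, minus strand: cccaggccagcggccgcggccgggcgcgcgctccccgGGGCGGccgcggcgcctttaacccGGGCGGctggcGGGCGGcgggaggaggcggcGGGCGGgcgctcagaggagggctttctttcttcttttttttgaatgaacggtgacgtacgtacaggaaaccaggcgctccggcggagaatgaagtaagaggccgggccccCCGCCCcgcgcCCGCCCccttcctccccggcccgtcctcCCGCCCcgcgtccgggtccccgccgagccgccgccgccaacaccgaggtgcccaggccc
Bbc3, chr7:16310011-16310310, plus strand: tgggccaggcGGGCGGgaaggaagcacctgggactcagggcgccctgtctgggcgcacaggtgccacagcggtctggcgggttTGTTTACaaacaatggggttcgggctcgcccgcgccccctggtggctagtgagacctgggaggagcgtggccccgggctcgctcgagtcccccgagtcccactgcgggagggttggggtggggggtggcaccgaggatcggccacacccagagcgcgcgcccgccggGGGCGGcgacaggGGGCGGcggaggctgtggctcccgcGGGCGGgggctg

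The motifs below were searched on both strands. The GC box GGGCGG, read by SP1, stood 7 times in the Bcl2 window and 4 times in the Bbc3 window, and 35.7% of all 32851 promoter windows hold at least 1. GTAAACA, read by FOXO factors, stood once in the Bbc3 window and nowhere in that of Bcl2. Of the 10 members, all but Pmaip1 have windows in the table searched, Bax included, 15 in all. Of these 15 windows 2 held it, 1 of Bbc3 and 1 of Bcl2l11, and 3.65% of all windows do. The C/EBP-ATF element TGATGNAA, read by ATF4 with a partner, was in none of the 15 windows and in 3.97% of all. GTGGGAA, read by RBPJ, the DNA-binding partner of NOTCH, was found for Bad alone and in 6.38% of all windows. The E-box CACGTG was found for Bax and for another Bbc3 start, and in 7.15% of all windows. Overlapping matches were each counted. The windows are 76% (Bcl2) and 74.7% (Bbc3) G and C. A match is a stretch of letters and not a measured binding site.

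In KOPTK1 cells the guardians moved apart under gSI: BCL2 and BCL2L1 fell and MCL1 rose. Of the BH3-only genes BBC3 rose and PMAIP1 fell, and of the effectors BAK1 rose. In limma on log2(FPKM + 1), 6 of the 9 tested members passed an adjusted p of 0.05, 3 upwards and 3 downwards, where 53.1% of 6679 tested genes passed, 22.8% upwards and 30.3% downwards. The median log2 fold change was 0.08 over the members and -0.03 over all tested genes. The members' share, 66.7%, stands against a background in which more genes passed than did not. The tenth member, BID, had a mean of 0.878 FPKM, under the minimum of 1 FPKM for testing.

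BCL2, the founding guardian, had the steepest fall by FPKM ratio of the 10. It was at 1.74 and 1.65 FPKM with DMSO and at 0.714 and 0.690 FPKM with gSI. Both treated libraries lay below both controls, and the mean was 2.42-fold lower. On the log2(FPKM + 1) scale, which understates changes of genes near 1 FPKM, the difference was -0.66 (SE 0.0558, adjusted p = 1.4e-10). It was -1.27 with limma-voom on the recovered reads, of which BCL2 had 4299 to 8342 per library. BCL2L1 encodes BCL-XL, a guardian that thymocytes use while they rearrange their receptor genes. It was at 5.20 and 4.83 FPKM with DMSO and at 3.27 and 3.50 FPKM with gSI. Its log2 fold change was -0.46 (SE 0.0757, adjusted p = 1.3e-05), and the groups did not overlap.

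MCL1, a short-lived guardian, moved in the other direction by a small amount. It was at 69.1 and 64.6 FPKM with DMSO and at 78.6 and 76.7 FPKM with gSI, a log2 fold change of 0.21 (SE 0.0845, adjusted p = 0.0342). The libraries did not overlap, but the call was lost without DMSO library 2 (adjusted p = 0.171), gSI library 1 (0.180) or gSI library 2 (0.117), and with a pseudocount of 5 (0.0535).

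BBC3 encodes PUMA, which binds all of the guardians. It was at 1.35 and 1.72 FPKM with DMSO and at 2.88 and 2.59 FPKM with gSI. The treated mean was 1.79-fold higher, with a log2 fold change of 0.56 (SE 0.0745, adjusted p = 4.7e-07). PMAIP1 encodes NOXA, which binds MCL1 and drives its breakdown. It was at 47.4 and 40.4 FPKM with DMSO and at 26.9 and 24.8 FPKM with gSI. It was 1.70-fold lower in the mean, with a log2 fold change of -0.74 (SE 0.0883, adjusted p = 9.8e-08). These 2 genes, both p53 targets, thus differed from the controls in opposite directions, and neither overlapped them.

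BCL2L11 encodes BIM, the BH3-only protein that removes faulty thymocytes. It was at 2.64 and 2.39 FPKM with DMSO and at 2.80 and 2.66 FPKM with gSI. Its log2 fold change of 0.09 (95% CI -0.06 to 0.24, adjusted p = 0.322) did not pass, although both treated libraries lay just above the controls. BAD, a BH3-only protein that is held inactive by phosphorylation, was at 1.09 and 1.16 FPKM with DMSO and at 1.09 and 1.19 FPKM with gSI. Its interval ran from -0.11 to 0.12 and the libraries overlapped. BID links death receptors to mitochondria once caspase-8 cuts it. It was at 1.07 and 0.975 FPKM with DMSO and at 0.749 and 0.715 FPKM with gSI, so both treated libraries were lower. In the fit without a minimum level its log2 fold change was -0.22 (SE 0.0481, adjusted p = 0.00720).

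The effectors form the pores themselves. BAK1 was at 2.11 and 1.89 FPKM with DMSO and at 2.49 and 2.62 FPKM with gSI, a log2 fold change of 0.24 (SE 0.0705, adjusted p = 0.00496). The call was lost without gSI library 2 (adjusted p = 0.122). BAX was at 5.34 and 5.28 FPKM with DMSO and at 5.40 and 5.97 FPKM with gSI. Its log2 fold change of 0.08 (95% CI -0.08 to 0.24) did not pass, although both treated libraries lay above the controls.

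**Figure D1:**
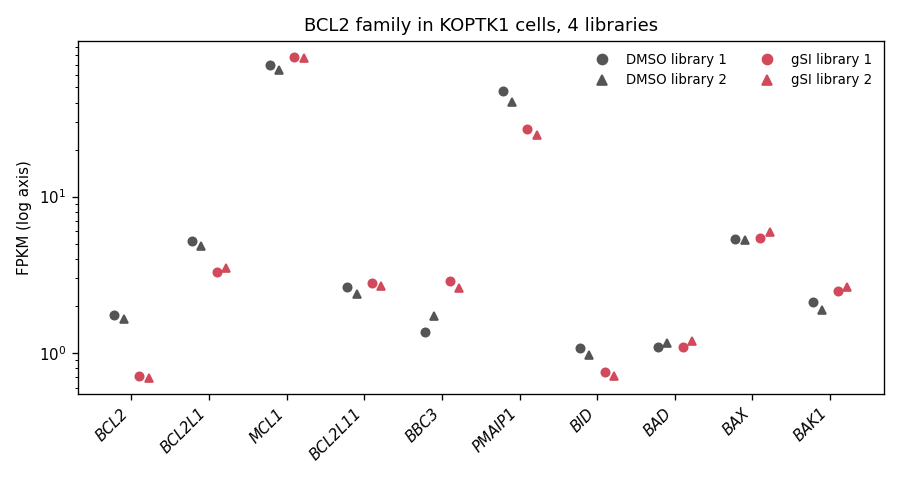
FPKM (log axis) of the 10 family members in the 4 KOPTK1 libraries, grey for DMSO and red for gSI, circles for library 1 and triangles for library 2. The red points of BCL2 (0.690 and 0.714), BCL2L1, PMAIP1 and BID lie below the grey ones. Those of BBC3 (2.59 and 2.88), MCL1 and BAK1 lie above, and those of BCL2L11 and BAX lie just above.

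**Figure D2:**
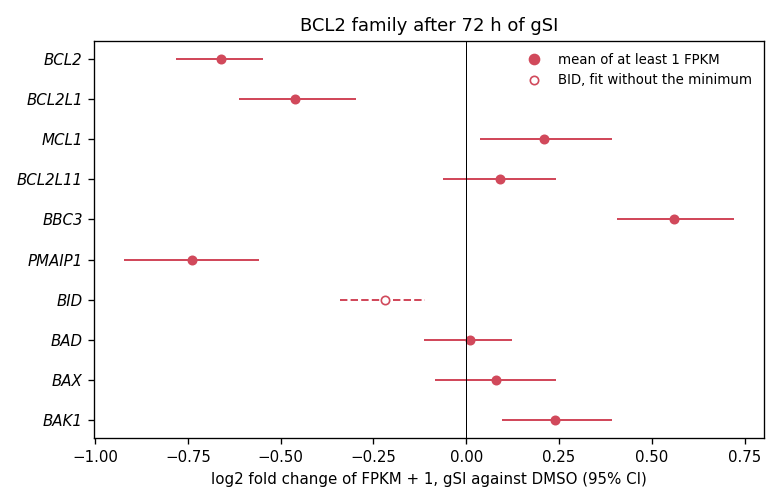
Log2 fold change of FPKM + 1 with its 95% confidence interval for each member, gSI against DMSO. Intervals of BCL2, BCL2L1 and PMAIP1 lie below 0 and those of BBC3, BAK1 and MCL1 above it; BID (open, dashed) comes from the fit without a minimum level.

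Levels of different human genes are not ranked here. The gene lengths that follow from the human FPKM had a median of 29957 bases, and that of BCL2 was 196782, far longer than spliced transcripts. Whether reads in introns were counted is not given in the sources used here. Within a gene the length cancels between libraries, and so do changes in the ratio of 2 genes. The log2 ratio of BCL2L11 to BCL2 was 0.60 and 0.53 with DMSO and 1.97 and 1.95 with gSI, 2.63-fold higher. BAX to BCL2 was 2.58-fold and MCL1 to BCL2 was 2.81-fold higher with gSI. BBC3 to MCL1 was 1.55-fold higher, and PMAIP1 to MCL1 was 1.97-fold lower. BCL2L1 to BCL2 was 1.63-fold higher, and BCL2L11 to MCL1 was 1.07-fold lower. In each the treated libraries lay outside the controls, but the share of all gene pairs that do so was not computed. The ratios to BCL2 share that gene, and no test was made.

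Genes around the family were taken from fixed lists. Of 19 other relatives of BCL2, 10 were listed and 5 tested, of which 1 rose and 1 fell. That is 40% of those tested, against 53.1% of all tested genes (median log2 fold change -0.07, all genes -0.03). BMF, a BH3-only protein freed when cells lose their anchorage, rose from 2.08 ± 0.182 to 4.24 ± 0.229 FPKM (SD, n = 2; log2 fold change 0.77, adjusted p = 2.6e-09). BNIP3L, a mitophagy receptor, fell from 1.96 ± 0.137 to 1.40 ± 0.0184 FPKM (-0.30, adjusted p = 2.8e-04). The other 3 tested relatives did not pass.

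Of 14 tested p53 targets outside the family, 8 rose and 3 fell, 78.6% in all. Over all tested genes 22.8% rose and 30.3% fell, 53.1% in all. The list's median log2 fold change was 0.22, and that of all genes -0.03. BTG2, which restrains proliferation, rose from 11.8 ± 0.0146 to 22.8 ± 1.56 FPKM, and DCXR, a carbonyl reductase, rose from 16.3 ± 0.870 to 24.6 ± 1.08 FPKM. CCNG1, cyclin G1, fell from 49.4 ± 3.78 to 22.2 ± 1.80 FPKM, and DDB2, a DNA damage sensor, fell from 4.45 ± 0.149 to 3.14 ± 0.172 FPKM. Like BBC3 and PMAIP1, these targets did not all go one way.

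Of 21 tested regulators that act on the family, 5 rose and 9 fell, 66.7% against 53.1% of all tested genes (median log2 fold change -0.12, all genes -0.03). STAT5A, which relays cytokine signals to BCL2 and BCL2L1, fell from 28.7 ± 0.778 to 8.02 ± 0.390 FPKM (log2 fold change -1.72, adjusted p = 2.5e-16). MYB, a transcription factor of T-cell progenitors, fell from 23.02 ± 1.83 to 8.39 ± 0.226 FPKM (-1.35, adjusted p = 1.2e-13). MYC, which NOTCH1 induces in T-ALL, fell by 1.62 on the log2 scale (adjusted p = 5.8e-16). TRIB3, a stress-induced pseudokinase, rose from 7.94 and 8.60 FPKM with DMSO to 17.7 and 16.96 FPKM with gSI (log2 fold change 0.98, adjusted p = 6.6e-11).

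Of 18 tested genes of the apoptosome, caspases, their inhibitors and the VDAC channels, 1 rose and 2 fell, 16.7% against 53.1% of all tested genes (median log2 fold change -0.04, all genes -0.03). CASP8, the caspase that cuts BID, rose from 3.28 ± 0.166 to 4.02 ± 0.0880 FPKM. VDAC1, a channel of the outer membrane, fell from 1.67 ± 0.104 to 1.05 ± 0.0548 FPKM, and BIRC3, a caspase regulator, fell from 2.84 ± 0.188 to 2.19 ± 0.0579 FPKM. Of 15 tested genes that control the turnover or capture of MCL1, BIM, BMF and BAD, 3 rose and 4 fell, 46.7% against the same 53.1%. Both dynein light chains rose, which tether BIM and BMF to the cytoskeleton. DYNLL2 went from 25.6 ± 1.08 to 42.0 ± 3.23 FPKM and DYNLL1 from 2.04 ± 0.0774 to 2.995 ± 0.284 FPKM. YWHAQ, a 14-3-3 protein of the kind that holds BAD in the cytosol, fell from 6.30 ± 0.456 to 4.83 ± 0.105 FPKM, and PPP2CA, a phosphatase subunit, fell from 9.42 ± 0.394 to 7.57 ± 0.383 FPKM.

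In the mouse leukaemias Mcl1 was the most abundant of the 9 members, and here levels of genes can be compared, since the recovered lengths (median 3180 bases) are near those of transcripts. Over 8 libraries Mcl1 averaged 76.6 FPKM, Bak1 52.9, Bid 26.3 and Bad 10.1. Bcl2l1 (8.89), Bcl2l11 (8.70), Bcl2 (8.02), Bbc3 (7.31) and Pmaip1 (6.21) followed. Bax, by its identifier, averaged 55.2 FPKM. The ranges of Mcl1 (62.8 to 87.4) and Bax (45.9 to 73.0) overlapped, as did those of Bax and Bak1 (41.8 to 61.8). Bak1 and Bid (19.6 to 33.1) did not overlap, nor did Bid and Bad (8.24 to 12.8). From Bad down, the ranges of neighbours overlapped.

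The diets were compared with the control to ask how members varied with dietary valine. No member passed limma's adjusted p of 0.05 at 0, 0.4 or 0.8 g/kg, nor did any of the 9943 tested genes (0%). Limma-voom on the recovered reads called no member either. At an unadjusted p of 0.05 there was 1 member at each diet, Bcl2 at 0 g/kg and Bad at 0.4 and at 0.8 g/kg. The shares of all tested genes at that level were 10.3% without valine, 10.7% for the 0.4 g/kg diet and 4.35% for the 0.8 g/kg diet. Since the 3 comparisons share their control libraries, they are not independent of each other. At 0 g/kg 2 members, Bcl2 and Bbc3, had both libraries above both controls, as did 19.1% of all tested genes. Another 2, Bcl2l11 and Bad, had both below, as did 22.9% of all genes, and the other 5 overlapped. Of the 9 members, 6 had their highest diet mean in the control, against 38.4% of all genes.

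Bcl2 (chr1:106538178-106714274, minus strand, GRCm38), whose promoter is printed above, had the largest difference among members. Its FPKM in TALL2 and TALL3 was 6.33 and 4.92 on the control diet, 7.01 and 5.20 with 0.8 g/kg, 10.2 and 5.23 with 0.4 g/kg, and 13.6 and 11.7 without valine. Both valine-free libraries lay above the other 6, and at 0.4 g/kg TALL2 exceeded both controls and TALL3 lay between them. The diet mean was higher at each step of falling valine, a pattern of 1 of the 9 members and of 8.76% of all tested genes. Bax, found by its identifier, also had it. At 0 g/kg the mean was 2.25-fold that of the control, and the ratio was 2.14 in TALL2 and 2.39 in TALL3. The log2 fold change was 1.05 (SE 0.298, 95% CI 0.32 to 1.77), with an adjusted p of 0.391 in limma. Across the ranked diets the slope was 0.34 per step (SE 0.0946, adjusted p = 0.269), and 12.3% of all genes had an unadjusted p under 0.05 for the slope.

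The other guardians showed no such order. Bcl2l1 in TALL2 and TALL3 was at 7.46 and 12.5 FPKM on the control diet, 6.82 and 9.76 with 0.8 g/kg, 8.70 and 7.88 with 0.4 g/kg, and 8.59 and 9.48 without valine. All restricted libraries lay between or below the 2 controls. Mcl1 was at 87.4 and 75.1 FPKM on the control diet, 85.7 and 63.6 with 0.8 g/kg, 62.8 and 78.0 with 0.4 g/kg, and 74.2 and 85.8 without valine. Its interval at 0 g/kg ran from -0.47 to 0.43 on the log2 scale, and that of Bcl2l1 from -0.71 to 0.53.

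Among the BH3-only genes, Bbc3 (chr7:16308393-16318205, plus strand) was lowest at the intermediate diets and highest without valine. In TALL2 and TALL3 it was at 10.05 and 5.69 FPKM on the control diet, 6.19 and 4.43 with 0.8 g/kg, 5.43 and 5.31 with 0.4 g/kg, and 10.7 in both libraries without valine. The controls differed by 1.77-fold, and the 0 g/kg libraries exceeded TALL2 of the control by little. The log2 fold change at 0 g/kg was 0.45 (SE 0.255, adjusted p = 0.580). It was 0.81 without TALL2 of the control and 0.08 without TALL3 of the control. Against the mean of the 0.8 and 0.4 g/kg diets it was 0.89 (SE 0.221, 95% CI 0.35 to 1.43), with an adjusted p of 0.515 in limma, and its unadjusted p was under 0.05. In that contrast Bcl2 also had an unadjusted p under 0.05 (0.83, adjusted p = 0.632), so 2 of 9 members did, against 6.65% of all tested genes.

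Bcl2l11 in TALL2 and TALL3 was at 9.78 and 10.3 FPKM on the control diet, 6.32 and 9.78 with 0.8 g/kg, 7.26 and 7.57 with 0.4 g/kg, and 9.05 and 9.53 without valine. No restricted library exceeded the controls, and the lowest mean was at 0.4 g/kg (log2 fold change -0.39, SE 0.185, adjusted p = 0.523). Bad was at 12.8 and 12.02 FPKM on the control diet, 8.24 and 10.1 with 0.8 g/kg, 8.55 and 9.08 with 0.4 g/kg, and 11.1 and 8.67 without valine. All 6 restricted libraries lay below both controls. The log2 fold change of Bad was -0.41 (SE 0.150) with 0.8 g/kg, -0.45 with 0.4 g/kg and -0.31 without valine, with adjusted p = 0.998, 0.418 and 0.528. Bid was at 25.9 and 33.1 FPKM on the control diet, 19.6 and 31.2 with 0.8 g/kg, 25.3 and 27.2 with 0.4 g/kg, and 21.2 and 27.0 without valine. Its groups overlapped at every diet.

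Pmaip1 differed more between the library names than between diets. In TALL2 it was at 3.82, 3.45, 3.38 and 3.09 FPKM from 8 to 0 g/kg, and in TALL3 at 8.85, 8.52, 4.35 and 14.2 FPKM. The TALL2 libraries fell a little at each step, to 0.809 of the control at 0 g/kg. The highest and the lowest values of the gene are both at 0 g/kg. Its log2 fold change at 0 g/kg, 0.20, has an interval from -1.52 to 1.91, with a spread estimated over all diets together (SE 0.704). It was 1.15 without TALL2 and -0.75 without TALL3 of the 0 g/kg diet.

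Of the effectors, Bak1 in TALL2 and TALL3 was at 52.5 and 61.1 FPKM on the control diet, 49.0 and 61.8 with 0.8 g/kg, 41.8 and 54.5 with 0.4 g/kg, and 45.2 and 57.3 without valine. Bax was at 45.9 and 58.0 FPKM on the control diet, 46.2 and 58.8 with 0.8 g/kg, 50.5 and 59.2 with 0.4 g/kg, and 49.8 and 73.0 without valine. For both, every diet overlapped the control, and the log2 fold changes at 0 g/kg were -0.15 (95% CI -0.62 to 0.32) and 0.22 (-0.33 to 0.77).

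**Figure D3:**
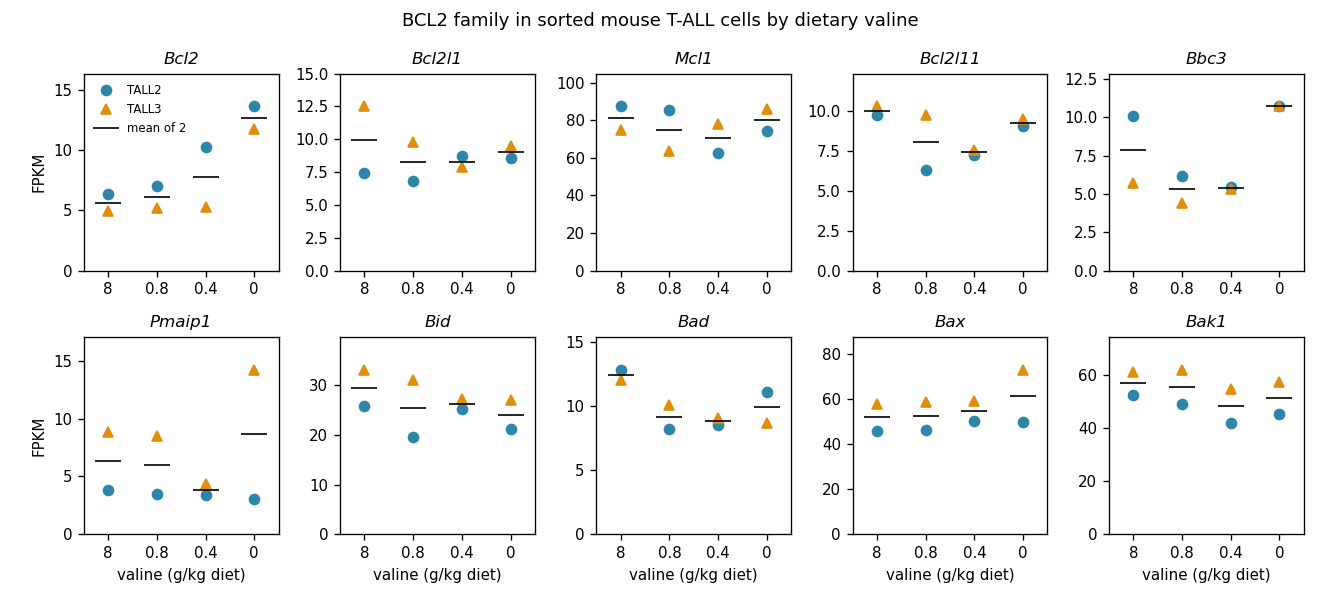
FPKM of each member in the 8 mouse libraries by diet, circles for TALL2, triangles for TALL3 and a bar for the mean of 2. Bcl2 is highest at 0 g/kg (13.6 and 11.7), Bbc3 is at 10.7 in both libraries there, and Pmaip1 spreads from 3.09 to 14.2.

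**Figure D4:**
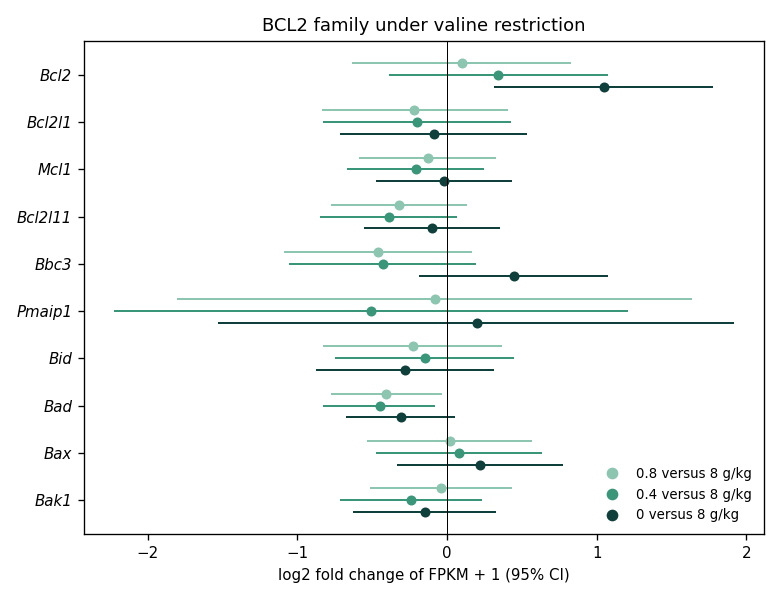
Log2 fold change of FPKM + 1 with its 95% confidence interval for 0.8, 0.4 and 0 g/kg against 8 g/kg. The intervals of Bcl2 at 0 g/kg (0.32 to 1.77) and of Bad at 0.4 and 0.8 g/kg leave out 0 before adjustment for multiple tests, and the others include it.

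The contrast between library names was added after the values were seen. TALL3 exceeded TALL2 in all 4 diets for 4 of the 9 members, Bcl2l11, Pmaip1, Bak1 and Bid, as for 13.5% of all tested genes, and also for Bax. TALL2 exceeded TALL3 in all 4 diets for Bcl2, as for 9.85% of all genes. The log2 difference, TALL3 minus TALL2 within diets, was 1.08 for Pmaip1 (SE 0.255, adjusted p = 0.202), 0.31 for Bak1 (adjusted p = 0.148), 0.36 for Bid (0.236) and -0.43 for Bcl2 (0.256). No member passed in limma or limma-voom, and limma called 0.0101% of all genes. At an unadjusted p of 0.05 there were 4 members, and 14.7% of all genes. Without the 0.4 g/kg diet's TALL2 or TALL3 library, the log2 difference of Pmaip1 was 1.34. Both deletions rest on the other diets only, since the partner library is then taken up by its diet's mean, so they are not separate checks. They leave out the diet with the smallest ratio of TALL3 to TALL2 for this gene, 1.29.

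The ratios to Bcl2 ran lower without valine. The log2 ratio of Bcl2l11 to Bcl2 in TALL2 and TALL3 was 0.63 and 1.07 on the control diet, -0.15 and 0.91 with 0.8 g/kg, -0.49 and 0.53 with 0.4 g/kg, and -0.58 and -0.30 without valine. Its mean at 0 g/kg was 2.45-fold lower than in the control. Bcl2l1 to Bcl2 was 2.41-fold, Mcl1 to Bcl2 2.30-fold and Bax to Bcl2 1.93-fold lower there, each with both libraries below both controls. Bbc3 to Mcl1 was 1.44-fold higher at 0 g/kg, outside the controls, and Bcl2l11 to Mcl1 and Pmaip1 to Mcl1 overlapped them. The ratios to Bcl2 share that gene. No ratio was tested, and the share of all gene pairs that lie outside their controls was not computed. In KOPTK1 with gSI the same ratios to BCL2 were higher than with DMSO, and the 2 systems were compared with different controls.

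**Figure D5:**
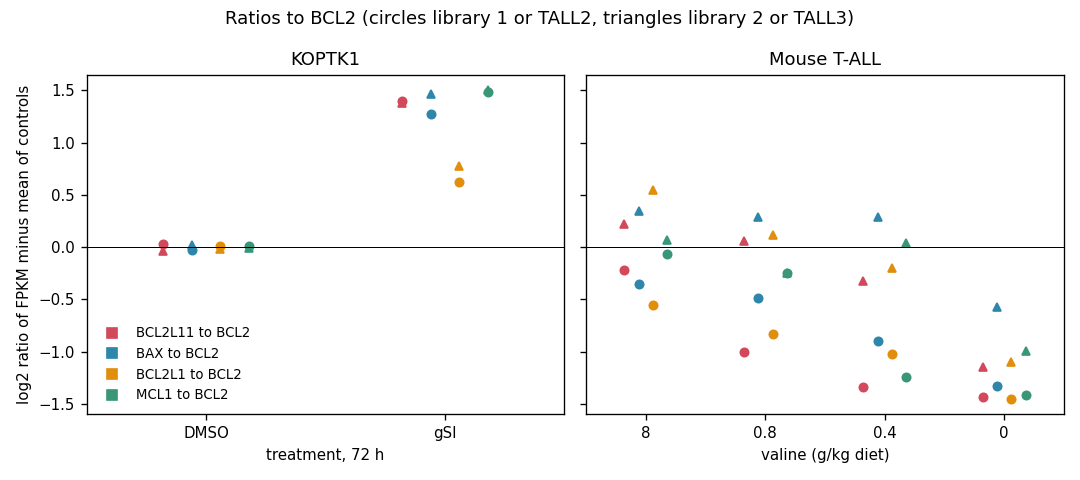
Log2 ratios of 4 members to BCL2 in FPKM, minus the mean of the controls, by treatment in KOPTK1 (left) and by dietary valine in mouse (right), circles for library 1 or TALL2 and triangles for library 2 or TALL3. With gSI the BCL2L11 ratio is 2.63-fold above the control mean, and at 0 g/kg it is 2.45-fold below it.

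The lists around the family held no gene past the adjusted threshold in any diet comparison. At 0 g/kg, 7 of 27 tested regulators had an unadjusted p under 0.05, against 10.3% of all tested genes, and the list's median log2 fold change was 0.14 (all genes: -0.01). The largest log2 fold changes among the 27 were those of Trib3 (2.84, SE 0.851, adjusted p = 0.406), Atf3 (1.76, 0.462) and Il7r (-1.51, 0.514). Il7r is not one of the 7, with an unadjusted p of 0.0740 in limma. Il2rg, the shared receptor chain of IL-2 and IL-7, averaged 102 ± 2.62 FPKM on the control diet and 173 ± 32.4 without valine (SD, n = 2; adjusted p = 0.318). Myc was at 245 ± 31.9 and 137 ± 35.0 FPKM (adjusted p = 0.358). Among 16 tested p53 targets Gadd45a, a growth arrest gene, was at 5.61 ± 0.0226 and 9.20 ± 0.696 FPKM (adjusted p = 0.358), and Trp53inp1, an autophagy and stress gene, at 120 ± 2.95 and 92.4 ± 9.97 FPKM (0.410). Of 22 tested apoptosome and caspase genes, Dffb, the nuclease that cuts DNA in dying cells, was at 16.03 ± 1.41 and 10.7 ± 1.86 FPKM (adjusted p = 0.369). Casp8 was at 45.2 ± 4.53 and 64.8 ± 6.99 FPKM (adjusted p = 0.372). Among the 8 tested relatives of Bcl2 none had an unadjusted p under 0.05. Bcl2l14 (log2 fold change 0.31, adjusted p = 0.572) and Bnip3l (-0.30, 0.669) had the smallest. Of 19 tested turnover genes, Ywhah, a 14-3-3 protein, was at 32.6 ± 2.81 and 40.5 ± 2.52 FPKM (adjusted p = 0.408), and Ywhag had the next smallest p (log2 fold change 0.19, adjusted p = 0.463).

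At the intermediate diets the genes of smallest p were partly those named for the valine-free diet. Dffb had the smallest p of the apoptosome and caspase list at both, with log2 fold changes of -0.61 with 0.4 g/kg (adjusted p = 0.389) and -0.42 with 0.8 g/kg (0.998). Casp9, the initiator caspase of the apoptosome, came next and was at 7.08 ± 0.177 FPKM in the control, 5.29 ± 0.121 with 0.8 g/kg and 5.03 ± 0.226 with 0.4 g/kg (adjusted p = 0.998 and 0.409). Among regulators with 0.4 g/kg, Akt1, a survival kinase that phosphorylates BAD, was at 126 ± 0.0289 FPKM against 150 ± 10.4 in the control (adjusted p = 0.418), and Myc had a log2 fold change of -0.55 (0.430). With 0.8 g/kg they were Runx1, a transcription factor of blood cells (0.48), and Il2rg (0.34), both with adjusted p = 0.998. Dynll2, which tethers BMF, was at 35.7 ± 0.430 FPKM in the control, 27.3 ± 1.97 with 0.8 g/kg and 29.0 ± 1.03 with 0.4 g/kg (adjusted p = 0.998 and 0.409). Usp9x, which removes ubiquitin from MCL1, was at 27.2 ± 0.00838, 29.7 ± 1.49 and 31.7 ± 0.719 FPKM in the same order (0.998 and 0.434). Of the p53 targets, Ppm1d, a phosphatase that dampens p53, had a log2 fold change of 0.23 (adjusted p = 0.527) and Ddb2 one of -0.31 (0.534) with 0.4 g/kg. With 0.8 g/kg Ddb2 was at -0.27 and Phlda3, an inhibitor of AKT, at 0.72 (both 0.998). Of the relatives of Bcl2, Bmf was at -0.47 (adjusted p = 0.662) and Bnip1 at -0.18 (0.701) with 0.4 g/kg, and Bcl2l14 at 0.26 and Bcl2l12 at -0.09 with 0.8 g/kg (both 0.998).

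Over the 8 mouse libraries the genes most like Bcl2 by Pearson correlation of log2(FPKM + 1) were Tuba8 (r = 0.965), Pygb (0.953) and Lmo2 (0.950). Those most like Mcl1 were Srgn (0.981), Cyth2 (0.978) and Limd2 (0.974), and those most like Bcl2l11 were Ccdc64 (0.981), Stam (0.974) and Rhbdd3 (0.970). Among members the highest correlation by symbol was 0.79, between Pmaip1 and Bak1, and the lowest was -0.64, between Bcl2 and Bak1. These describe 8 libraries that share diets and names, and carry no test.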

How the data were processed

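Per the labels' protocols, an RNeasy kit gave the RNA and a directional kit the libraries. The submitters' processing notes name STAR, edgeR, hg19 and mm10, without versions. Neither counting tool nor gene model is stated there. The authors deposited FPKM values, in a human and a mouse table that were analysed apart. Mouse genes without a symbol (318) were named from a reference list through their identifiers.

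Read numbers were recovered from the whole-number steps between FPKM values. The implied gene length was whole at once for 95.6% of human and 99.6% of mouse genes, so reads are estimates. Tested genes had a mean FPKM of 1 or more (6679 human, 9943 mouse). The test was limma (version 3.58.1, R version 4.3.3) of log2(FPKM + 1) using a variance trend, two-sided, Benjamini-Hochberg adjusted over all tested genes, at 0.05. The 4 diets were fitted together, and the slope used their ranks. The code was tested on simulated data. The alternatives were pseudocounts of 0.1 and 5, no minimum or one of 5 FPKM, other scalings, no trend, a replicate block, limma-voom on recovered reads, only the diets compared, and leaving out each library. The TALL3 against TALL2 contrast and the block with voom were added after seeing the data.

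The members and gene lists were chosen with earlier results of these data known. Every member was named. From each other list up to 4 genes past the threshold were named by size of change, or 2 by the smallest p where none passed. In mouse this is given for each diet against the control, and the lists are not described for the slope, the contrast with the mean of the intermediate diets or the library names. For Bcl2, Mcl1 and Bcl2l11 the 3 most correlated genes were named. No sequence of Pmaip1 is printed, and human sequences were not used here.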

Additional observations from a re-analysis of the deposited data

Results flagged for a closer look

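For 3 members the log2 ratio of FPKM at 0 over 8 g/kg had opposite signs in the libraries named TALL2 and TALL3. It was 0.20 in TALL2 and -0.39 in TALL3 for Bcl2l1, -0.24 and 0.19 for Mcl1, and -0.30 and 0.69 for Pmaip1. Each value rests on 1 library per diet, and the difference was not tested.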

How the results depend on the processing

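Of 808 values of single members under alternatives, 764 kept their side of the threshold and moved little, 5 lost a call, 2 gained one, 37 moved by more than their standard error without a call, and no call changed sign. In 32 of the 808 the sign differed from that of the main fit. The main fit called no member in a mouse diet comparison, so the statement on calls does not cover those directions. With a minimum of 5 FPKM only 3 members were tested in KOPTK1 and 2 passed, since fewer genes were tested. For TALL3 against TALL2, 0 to 1 members passed when single libraries were left out. With a pseudocount of 5 the log2 fold change of BCL2 under gSI was -0.23, and with 0.1 it was -1.16, both called. Leaving out single libraries lost the calls of MCL1 (0.17 to 0.23) and BAK1 (0.22), as given above.

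The replicate numbers did not pair the mouse libraries throughout: deviations from the diet means correlated from -0.174 to 0.743 between diets, and at 0.258 in KOPTK1. With the replicate block 6 members passed in KOPTK1, where 3705 of all 6679 tested genes did. In each mouse comparison 0 members passed, also with voom, and with the block in limma 0 of 9943 genes did. Groups of 2 limit every comparison, and the lowest read number of a member was 151.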
